A study of Bos taurus with 16 samples.

Results

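The expression of 10 genes of tendon and of its proteoglycans was followed in every library of neonatal Hanwoo calf muscle. The genes were tenomodulin (TNMD, 781292), scleraxis (SCX, 615157), mohawk (MKX, 521239), decorin (DCN, 280760), biglycan (BGN, 280733), asporin (ASPN, 507990), fibromodulin (FMOD, 281168), lumican (LUM, 280847), keratocan (KERA, 280785) and prolargin (PRELP, 282000). They are 10 of the 34109 genes listed, and the numbers in parentheses are the NCBI gene IDs by which their rows were found. All 10 had at least 1 count in each muscle. They were selected on earlier results of these data, namely the difference of TNMD between the diets in round muscle and the position of the calf named control replicate 2 in tendon genes. The values of that diet contrast, and those that set this calf against the others, are therefore given as a description.

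Hanwoo is a Korean beef breed, and round and sirloin are muscles of the hind leg and of the back. The 8 calves came from 8 cows, of which 4 were fed at 100% of the requirement (control) and 4 at 150% (treated) from mid to late pregnancy. By the paper's methods all were male and were sampled right after birth, before any colostrum. Both muscles of each calf were sequenced, which gave 16 libraries in 4 groups of 4, and a replicate number within a diet was taken to mark one calf. Each replicate is a separate calf, and a library is a piece of whole muscle with whatever connective tissue it held. In such bulk samples, fewer cells of a type and less RNA per cell cannot be told apart.

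Tendon cells arise under the control of transcription factors such as SCX and MKX, and TNMD is a membrane protein of maturing tendon cells. DCN, BGN and ASPN belong to class I of the small leucine-rich proteoglycans, proteins of the extracellular matrix that bind collagen, and FMOD, LUM, KERA and PRELP belong to class II. These proteins shape the diameter and spacing of collagen fibrils, and several of them bind growth factors of the TGF-β family. DCN is abundant in the connective tissue sheaths of skeletal muscle as well as in tendon, whereas TNMD, SCX and MKX are commonly used as marks of tendon cells.

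The total count was between 44.5 M and 72.4 M reads per library. Both libraries of control replicate 2 were the deepest, and the other 14 held at most 67.1 M. The deposited TPM values (a scale per length of transcript and per total of the library) summed to 1000000 in both libraries of control replicate 2 and to between 999756 and 999858 in the other 14 libraries. Whether these 2 libraries were processed like the other 14 is not given in the sources used here, and the part of such a difference in the levels below was not tested. Markers of muscle fibres (ACTA1, CKM, TTN, MB, TNNT3, TNNT1 and MYBPC1) summed to between 46878 and 84620 TPM, so that all 16 libraries were muscle by this measure. Markers of fat cells (ADIPOQ, PLIN1, LEP, FABP4 and CIDEC) summed to 3777 TPM in the sirloin library of treated replicate 4 and to at most 4.84 TPM in the other 7 sirloin libraries. By these measures both libraries of control replicate 2 and the sirloin library of treated replicate 4 stand apart. In the round library of treated replicate 4 the fat cell markers summed to 4.73 TPM. Several results are given with and without these 2 calves.

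On the TPM scale the 10 genes spanned a wide range of levels. The median over the 16 libraries was 120.2 TPM for DCN, 12.1 for BGN, 5.73 for LUM, 3.43 for FMOD, 3.42 for ASPN, 2.98 for PRELP and 1.82 for KERA. The 3 tendon factors were lower, with medians of 0.441 TPM for MKX, 0.294 for SCX and 0.0231 for TNMD. DCN was above each of the other 9 genes in every library, and its range of 61.8 to 336 TPM did not meet the range of any of them except BGN, whose highest value was 64.0 TPM. The ranges of FMOD (0.921 to 59.8 TPM), ASPN (1.62 to 13.9 TPM), PRELP (1.35 to 18.8 TPM), KERA (0.376 to 44.4 TPM) and LUM (1.24 to 40.6 TPM) overlapped widely, so that these neighbours in the order did not differ beyond their spread. TNMD was listed at 0 in 8 of the 16 libraries, while SCX, MKX and the proteoglycans had reads in all of them.

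**Figure D1:**
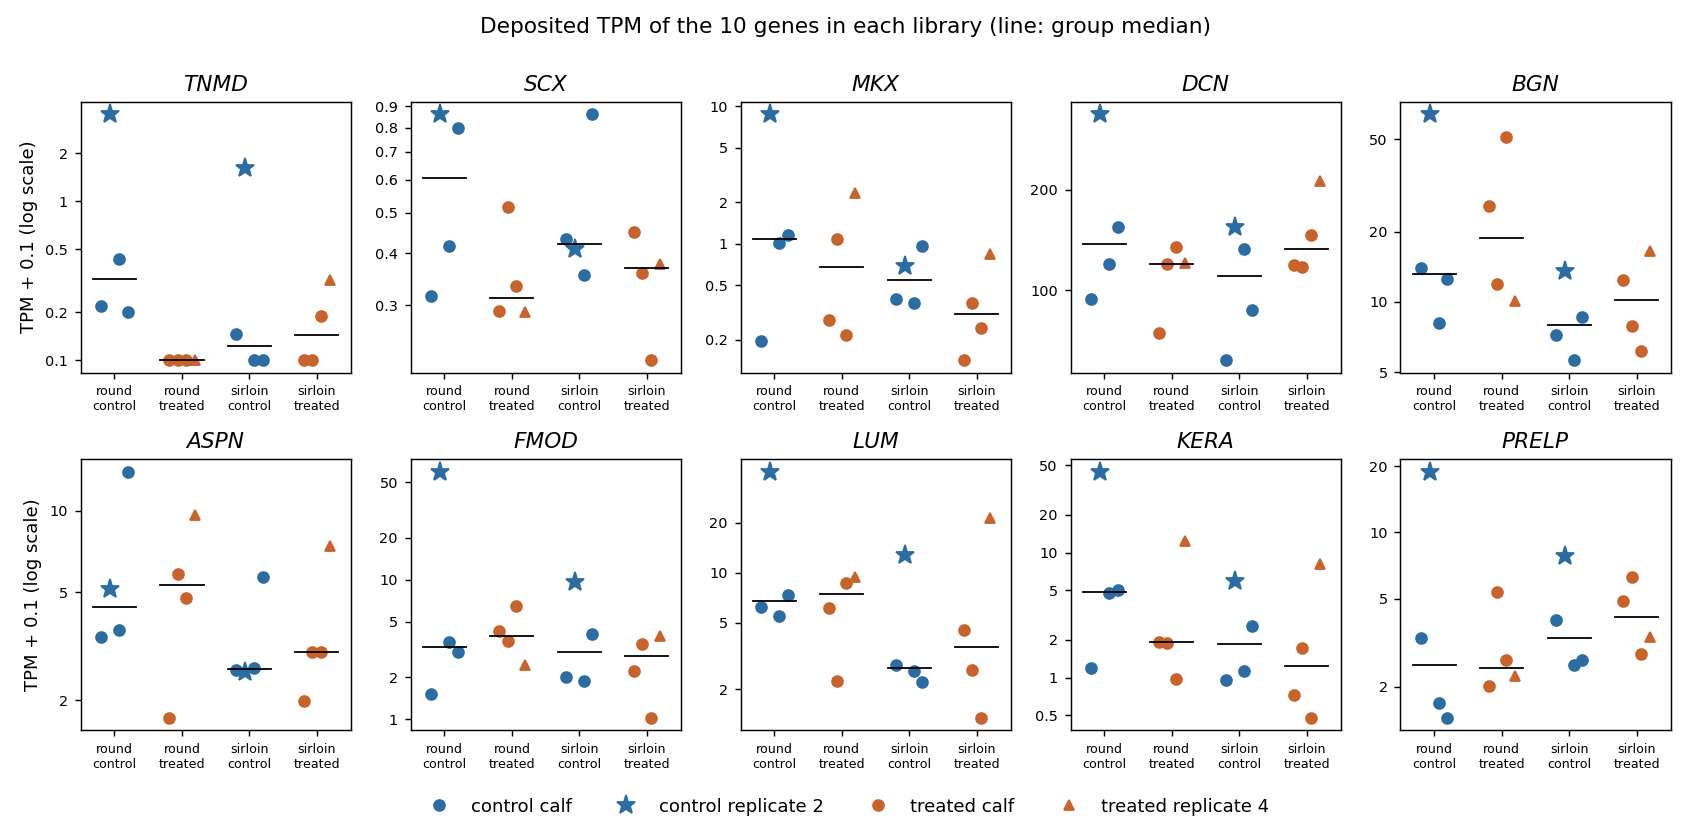
Each panel shows one gene, with the deposited TPM plus 0.1 of each library on a log axis against the 4 groups of 4 calves; lines mark group medians, stars control replicate 2 and triangles treated replicate 4. In round muscle the star is the highest point in every panel but that of ASPN, and all 4 treated round libraries of TNMD sit at 0 TPM.

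TNMD was the gene with the sharpest division between the diets in round muscle. Its counts in control replicates 1 to 4 were 4, 141, 9 and 3, or 0.119, 3.45, 0.332 and 0.101 TPM, and all 4 treated libraries had 0 counts. The groups did not overlap, with or without control replicate 2, but that calf gave 141 of the 157 control counts. A floor of 3 counts over the treated group corresponds to 0.0131 CPM (counts scaled to library size with TMM factors) and covers counting error only. Against it the control mean of 0.540 ± 0.835 CPM (SD, n = 4) made TNMD at least 41.4-fold lower in treated round muscle. Without control replicate 2 the control mean was 0.124 ± 0.0788 CPM (SD, n = 3), and the bound fell to at least 9.49-fold lower. In sirloin muscle TNMD had counts of 2, 64, 0 and 0 in the control calves and 0, 0, 4 and 8 in the treated calves, so that the groups overlapped. Without control replicate 2, the sirloin counts came to 2 in the control and 12 in the treated group, against 66 in the control group with that calf.

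SCX, a transcription factor of tendon progenitors, was low in both muscles. In round muscle it was 0.217, 0.762, 0.316 and 0.700 TPM in control replicates 1 to 4 and 0.191, 0.417, 0.233 and 0.189 TPM in the treated calves. Its sirloin levels were 0.333, 0.310, 0.255 and 0.763 TPM in control and 0.351, 0.259, 0.122 and 0.278 TPM in treated calves. Control replicate 4 was high for SCX in both muscles, and control replicate 2 was high in round muscle only. SCX overlaps BOP1 in the annotation, a gene at 12.1 to 41.0 TPM, and whether the counting used strand is not given in the sources used here, so its low level is uncertain. BOP1 was at 16.7 TPM in the round library of control replicate 2.

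MKX, a homeobox factor of tendon and of collagen expression, varied more between calves. It was 0.0946, 8.72, 0.910 and 1.06 TPM in control round muscle and 0.178, 0.983, 0.116 and 2.22 TPM in treated round muscle. In sirloin muscle its level was 0.293, 0.588, 0.272 and 0.857 TPM in control and 0.0417, 0.272, 0.144 and 0.738 TPM in treated calves. The round library of control replicate 2 was 3.92 times the next highest library, while in sirloin muscle the same calf was below control replicate 4 and treated replicate 4.

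DCN, the most abundant of the class I proteoglycans, was 94.3, 336, 120 and 154 TPM in control round muscle. The treated round levels were 74.4, 119.7, 135 and 120.4 TPM, of which 3 lay within the range of the control calves other than replicate 2 and the first lay below it. In sirloin muscle DCN was 61.8, 155, 133 and 87.3 TPM in control and 119, 118, 146 and 212 TPM in treated calves. Treated replicate 4, the sirloin library with fat cell markers, was the highest there.

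BGN, which resembles DCN and carries a pair of glycosaminoglycan chains, was 13.8, 64.0, 8.06 and 12.4 TPM in control round muscle and 25.6, 11.9, 50.9 and 9.96 TPM in treated round muscle. Its sirloin levels were 7.15, 13.5, 5.52 and 8.51 TPM in control and 12.3, 7.80, 6.04 and 16.4 TPM in treated calves. A treated calf, replicate 3, came close to control replicate 2 in round muscle, and the groups overlapped in both muscles. ASPN, an inhibitor of TGF-β that also binds collagen, was 3.31, 5.06, 3.53 and 13.9 TPM in control round muscle and 1.62, 5.77, 4.65 and 9.57 TPM in treated round muscle. In sirloin muscle ASPN was 2.48, 2.44, 2.53 and 5.62 TPM in control and 1.88, 2.90, 2.90 and 7.35 TPM in treated calves. ASPN departed from the other genes in that control replicate 4 and treated replicate 4 were its 2 highest calves in both muscles and control replicate 2 was ordinary. ASPN overlaps CENPP in the annotation, which was at 0.906 to 3.03 TPM, so that a share of its low values is uncertain in the same way.

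FMOD, a class II proteoglycan that guides the growth of collagen fibrils in tendon, showed the widest gap of control replicate 2 to the next library after TNMD. In round muscle it was 1.42, 59.8, 3.48 and 2.95 TPM in control and 4.16, 3.56, 6.43 and 2.36 TPM in treated calves. In sirloin muscle it was 1.91, 9.54, 1.77 and 4.01 TPM in control and 2.099, 3.38, 0.921 and 3.87 TPM in treated calves. Control replicate 2 was the highest in both muscles, at 9.31 times the next round library. FMOD overlaps LOC107133214 in the annotation, which was listed at 0 in every library.

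LUM, a close relative of FMOD found in many connective tissues, was 6.16, 40.6, 5.38 and 7.28 TPM in control and 6.07, 2.15, 8.57 and 9.32 TPM in treated round muscle. Its sirloin levels were 2.70, 12.6, 2.47 and 2.11 TPM in control and 4.43, 2.51, 1.24 and 21.2 TPM in treated calves. Control replicate 2 was far above the rest in round muscle, and treated replicate 4 was above it in sirloin muscle. KERA, best known from the cornea and also expressed in tendon, had the same pair of high calves. It was 1.10, 44.4, 4.61 and 4.93 TPM in control and 1.83, 1.81, 0.883 and 12.2 TPM in treated round muscle. In sirloin muscle KERA was 0.851, 5.83, 1.03 and 2.51 TPM in control and 0.624, 1.63, 0.376 and 8.03 TPM in treated calves. PRELP, an anchor between basement membranes and connective tissue, was 3.24, 18.8, 1.58 and 1.35 TPM in control and 1.92, 5.29, 2.55 and 2.14 TPM in treated round muscle. Its sirloin levels were 3.93, 7.71, 2.42 and 2.54 TPM in control and 4.81, 6.16, 2.73 and 3.25 TPM in treated calves, with control replicate 2 the highest in both muscles.

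Control replicate 2 was the highest of the 8 round libraries for 9 of the 10 genes, where it was the highest for 22.7% of all genes with a count in round muscle. The genes were selected in part on this position, so the count describes the choice and is no test. Its level over the median of the other 7 round libraries was 24.2 times for KERA, 17.2 for FMOD, 9.58 for MKX, 8.79 for PRELP, 6.59 for LUM, 5.16 for BGN, 3.26 for SCX and 2.80 for DCN. For ASPN it was 1.09 times, and for TNMD the median of the other 7 was 0. The class II genes thus stood farther out than DCN, and the share of DCN in the summed TPM of the 10 genes was 57.8% in this library against 64.1% to 81.0% in the other 7 round libraries. FMOD took 10.3% there and between 1.15% and 3.59% in the others. In total the 10 genes came to 582 TPM in that library, and to between 116 and 209 TPM in the other 7.

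The sirloin library of the same calf stood out less. It was the highest of 8 for 3 of the 10 genes (TNMD, FMOD and PRELP), where it was the highest for 15% of all genes with a count in sirloin muscle. Its level over the median of the other 7 sirloin libraries was 5.65 times for KERA, 5.04 for LUM, 4.54 for FMOD, 2.37 for PRELP and 2.16 for MKX. The remaining folds were 1.73 for BGN, 1.31 for DCN, 1.12 for SCX and 0.842 for ASPN. Treated replicate 4 was the highest sirloin library for 5 of the 10 genes (DCN, BGN, ASPN, LUM and KERA), against 19.7% of all genes, and for 0 of 10 in round muscle, against 9.7%. The 10 genes summed to 273 TPM in its sirloin library and to 209 TPM in that of control replicate 2.

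Most of the other genes of tendon and its matrix were also high in the round library of control replicate 2. Of 14 such genes (COMP, THBS4, CILP, CILP2, TPPP3, FIBIN, ANGPTL7, COL1A1, COL1A2, COL3A1, COL5A1, COL12A1, COL14A1 and COL11A1), control replicate 2 was the highest round library for 13, all but CILP2, against 22.7% of all genes. Their summed level was 2097 TPM in that library and at most 442 TPM in the other 7. COL1A1, the main chain of type I collagen, was at 703 TPM there against at most 113 TPM elsewhere in round muscle, and COL12A1, a collagen on the surface of fibrils, was at 49.3 TPM against at most 7.30 TPM. COMP, a bridge between collagen fibrils, was at 2.01 TPM against at most 0.109 TPM. In sirloin muscle the sum was 543 TPM in control replicate 2 and 599 TPM in treated replicate 4, and between 156 and 267 TPM in the other 6 calves. Control replicate 2 was the highest sirloin library for 7 of the 14, against 15% of all genes.

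Markers of other cell types differed in these libraries as well. Fibroblast markers (PDGFRA, DPT, MFAP5, PI16, DPP4, COL15A1 and CD34) summed to 250.3 TPM in the round library of control replicate 2, the highest there for 4 of 7 against 22.7% of all genes, and to between 62.0 and 125 TPM in the other 7 round libraries. Cartilage markers (COL2A1, ACAN, COL9A1, SOX9, MATN1, MATN3 and CNMD) summed to 3.14 TPM in it, below the 3.49 TPM of treated replicate 3. Most of the latter was CNMD, at 3.02 TPM there and at 0.0683 TPM in control replicate 2. Among the cartilage markers in control replicate 2, COL2A1 was at 1.39 TPM and ACAN at 0.991 TPM, both the highest of the round libraries, and COL9A1 and MATN1 were listed at 0. Fat cell markers summed to 15.0 TPM against at most 7.99 TPM, and muscle fibre markers to 54779 TPM, within the range of 50500 to 81648 TPM of the round libraries. The part of these cell types in the levels of the 10 genes was not tested.

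**Figure D2:**
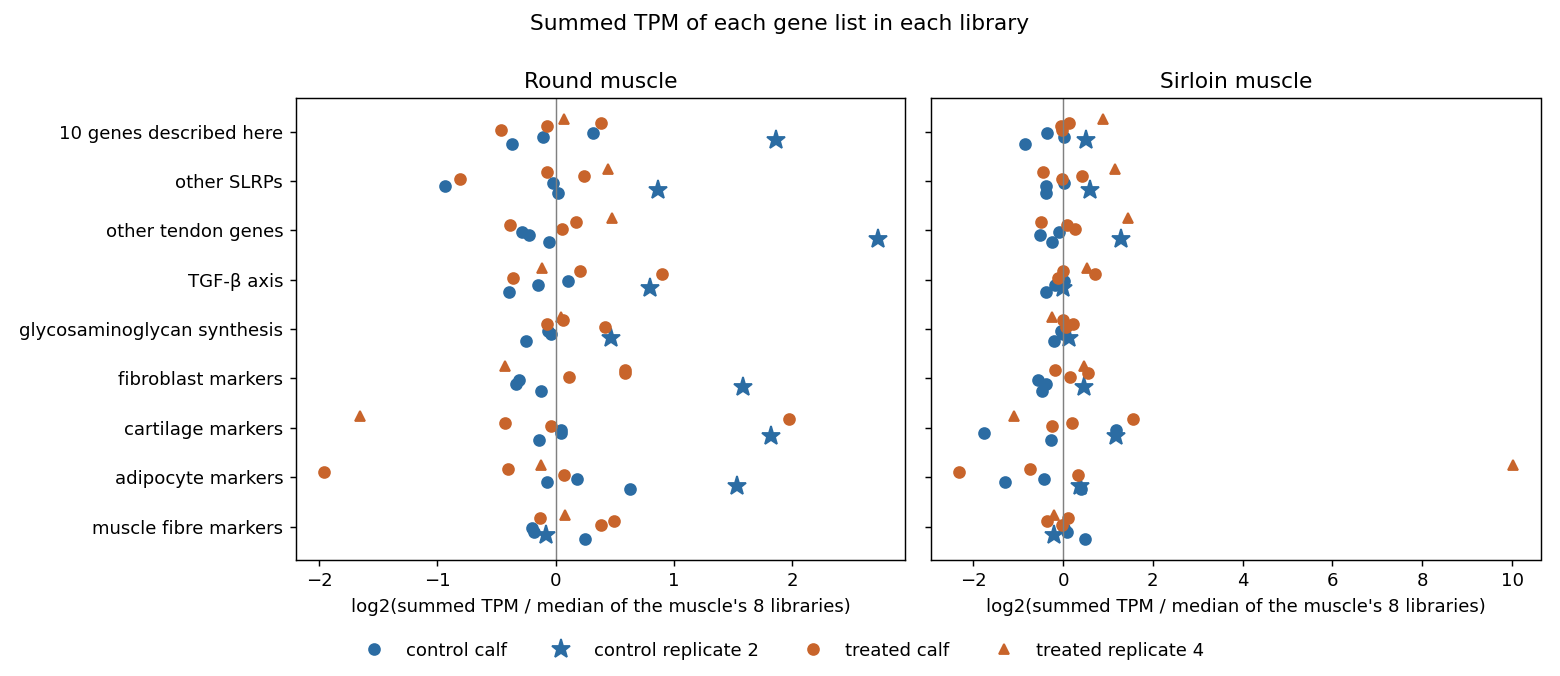
Rows are gene lists and points are libraries, placed by the log2 ratio of the summed TPM of the list to the median of the 8 libraries of the muscle; stars mark control replicate 2 and triangles treated replicate 4, and the panels have different x ranges. Among the lists plotted, the star lies farthest right for the other tendon genes in round muscle (2097 TPM against at most 442 TPM), and the triangle for fat cell markers in sirloin muscle (3777 TPM).

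The comparison of the diets asks whether overfeeding of the cow in mid to late pregnancy went with another level of these genes in the newborn calf. In round muscle 9 of the 10 genes were lower in treated calves, where 48.1% of all genes were lower. The log2 fold change (treated over control ± SE) was -1.06 ± 0.534 for SCX, -1.70 ± 1.05 for MKX, -0.69 ± 0.336 for DCN, -0.38 ± 0.566 for ASPN and 0.02 ± 0.629 for BGN. For the class II genes it was -1.96 ± 0.929 for FMOD, -1.14 ± 0.628 for LUM, -1.63 ± 1.01 for KERA and -1.09 ± 0.692 for PRELP. No fitted fold change is given for TNMD, whose treated libraries were all at 0. By edgeR's quasi-likelihood test, 0 of the 10 genes passed an adjusted p-value of 0.05, where 4 of all 21677 genes (0.0185%) passed, and 1 of the 10 (TNMD) had an unadjusted p under 0.05, against 4.41% of all genes. DESeq2 called 1 of the 10, TNMD, and 46 of all genes. TNMD was also the only one of the 10 whose groups did not overlap in round muscle, against 1.82% of all genes.

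The direction in round muscle changed without control replicate 2 for FMOD, PRELP and KERA. Without that calf, 6 of the 10 genes were lower and 4 were higher in treated calves, and the median log2 fold change of the 10 went from -1.12 to -0.12, while that of all genes was 0.02 with the calf and 0.06 without it. FMOD went to 0.46 ± 0.412, PRELP to 0.28 ± 0.421, KERA to 0.06 ± 0.853 and BGN to 0.92 ± 0.526. LUM was at -0.11 ± 0.458 and MKX at -0.12 ± 0.931, close to no difference relative to their errors. The 3 genes that kept a difference of over 0.3 on the log2 scale in the same direction were SCX at -0.93 ± 0.566, DCN at -0.34 ± 0.281 and ASPN at -0.57 ± 0.617, besides TNMD with its 0 counts. ASPN in turn rested on control replicate 4 and was at 0.40 without that calf. With treated replicate 4 left out besides control replicate 2, KERA was at -1.54 ± 0.551 and MKX at -1.36 ± 0.831. In that fit 7 of the 10 were lower and 3 higher, with a median of -0.62, against 0.05 over all genes. By edgeR 3 of the 10 (TNMD, KERA and BGN) then had an unadjusted p under 0.05, against 7.63% of all genes, and 0 passed the threshold.

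**Figure D3:**
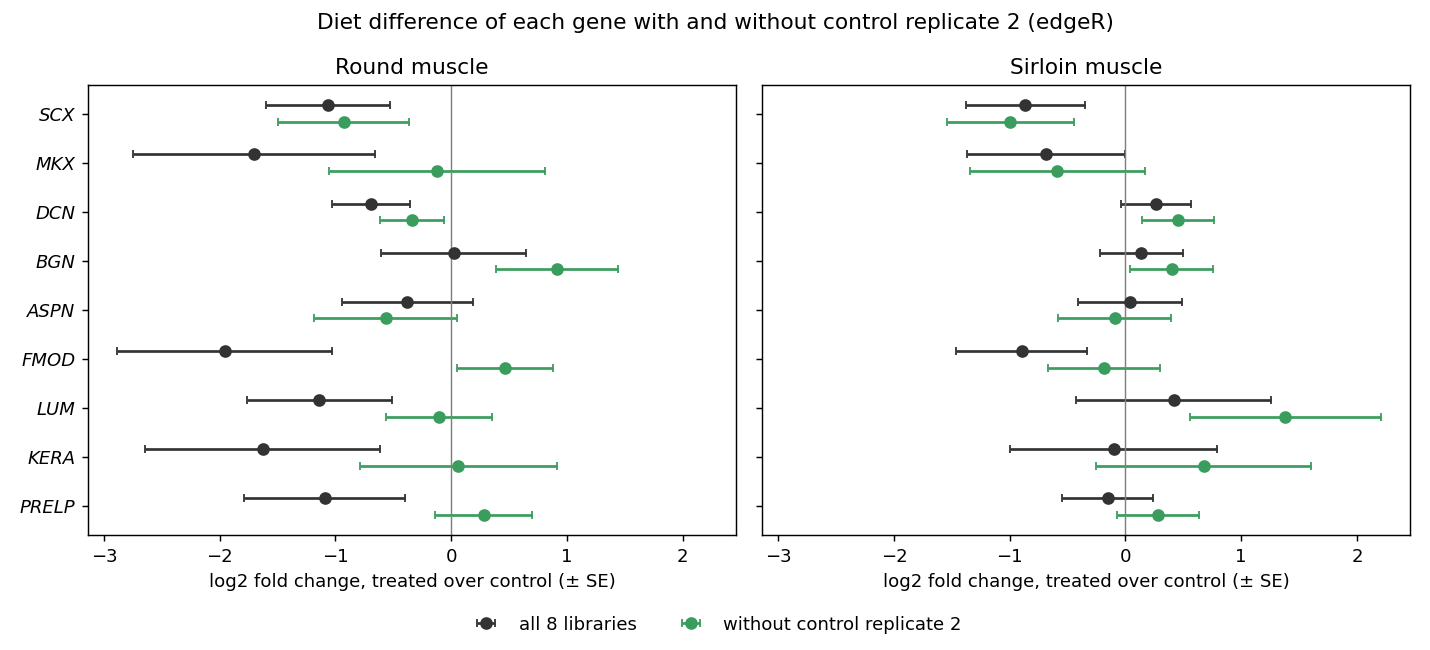
Points are log2 fold changes (treated over control, edgeR) with standard errors for 9 of the genes, with all 8 libraries of a muscle and without control replicate 2. TNMD is left out of both panels because its treated round libraries were all at 0. In round muscle FMOD, PRELP and KERA cross from the lower to the higher side without that calf.

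In sirloin muscle the 10 genes were divided, with 4 higher and 6 lower in treated calves, where 52.9% of all genes were higher. The log2 fold change was -0.87 ± 0.515 for SCX, -0.69 ± 0.684 for MKX and -0.89 ± 0.566 for FMOD, the genes farthest from 0 besides TNMD. It was 0.26 ± 0.304 for DCN, 0.14 ± 0.356 for BGN, 0.04 ± 0.450 for ASPN, 0.42 ± 0.839 for LUM, -0.10 ± 0.894 for KERA and -0.15 ± 0.395 for PRELP. Each of these differences was smaller than 2 times its standard error. None of the 10 passed the threshold by edgeR (0 of 10, adjusted p-values of 0.876 and above), where 2 of all 21776 genes (0.00918%) did. At an unadjusted p under 0.05 edgeR found 0 of the 10, against 3.91% of all genes, and DESeq2 called 0 as well. In sirloin muscle the groups overlapped for all 10 genes, where 1.63% of all genes showed no overlap.

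The balance of directions in sirloin muscle depended on which calf was left out, also among those that do not stand apart. Without treated replicate 3, 6 of the 10 genes were higher and 4 lower, and without control replicate 3, 2 were higher and 8 lower. Without control replicate 2, 6 of the 10 genes were higher in treated calves, with a median log2 fold change of 0.34, and LUM was at 1.38 ± 0.827. Without treated replicate 4, 9 of the 10 were lower, with a median of -0.96 against -0.0035 over all genes. In that fit 2 of the 10 had an unadjusted p under 0.05 by edgeR, against 3.14% of all genes. Without both calves, 6 were lower and the median was -0.25. SCX, MKX, ASPN and FMOD were lower in treated calves in each of these last 3 fits. TNMD was lower without treated replicate 4, but higher without control replicate 2 and without both calves.

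Whether the diet difference itself differed between the muscles was tested with an interaction term. All 10 genes had a more negative diet difference in round than in sirloin muscle, with a median of -1.02 on the log2 scale against -0.04 over all genes. For DCN the difference of the differences was -0.98 ± 0.479 (adjusted p-value = 1.00 by edgeR). By edgeR 0 of the 10 and 0 of all 22877 genes (0%) passed the threshold, while 0 of the 10 and 2.78% of all genes had an unadjusted p under 0.05. DESeq2 also called 0 of the 10. With the calf as a block, 9 of the 10 were more negative in round muscle, with a median of -0.34, and 2 of the 10 (DCN and TNMD) had an unadjusted p under 0.05, against 3.78% of all genes. DCN was then at -0.93 ± 0.288 (adjusted p-value = 1.00 by edgeR), and 0 of the 10 passed the threshold. Without control replicate 2 the directions were 5 and 5, with a median of -0.22 without the block and -0.10 with it.

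The comparison of round with sirloin muscle was made over the 8 calves that gave both. The genes were not chosen on this contrast, but in part on the position of control replicate 2, whose libraries enter it. The values with that calf are thus not independent of the choice. Fold changes without it are given below for MKX, FMOD, ASPN, KERA and PRELP only. KERA was higher in the round muscle of all 8 calves, with means of 8.98 ± 14.8 TPM in round and 2.61 ± 2.81 TPM in sirloin muscle (SD, n = 8). BGN and ASPN were higher in the round muscle of 7 of 8 calves, MKX and LUM in 6 of 8 and FMOD in 5 of 8. DCN and SCX were higher in the round muscle of 4 of 8 calves. PRELP went the other way and was lower in the round muscle of 7 of 8 calves, the exception being control replicate 2. TNMD was higher in round muscle in 4 calves, lower in 2 and at 0 in both muscles of the other 2.

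Without regard to the calf, the log2 fold change of round over sirloin muscle was 1.85 ± 0.708 for MKX, 1.55 ± 0.769 for KERA, 1.39 ± 0.411 for BGN, 1.35 ± 0.608 for FMOD and 0.85 ± 0.399 for ASPN. By edgeR 0 of the 10 genes passed the threshold, where 14 of all 22877 genes (0.0612%) did, 6 of them (0.0262% of all genes) with a higher level in round muscle, and 4 of the 10 (MKX, BGN, FMOD and ASPN) had an unadjusted p under 0.05, against 6.33% of all genes. DESeq2 called 0 of the 10 and limma-voom 0 as well. Without control replicate 2, 1 of the 10 (BGN) had an unadjusted p under 0.05 by edgeR, against 5.27% of all genes. The difference was then 1.11 ± 0.674 for MKX, 0.48 ± 0.338 for FMOD and 0.87 ± 0.436 for ASPN. With the calf as a block, which uses the pairing of the muscles, KERA was higher in round muscle by 1.32 ± 0.249 (adjusted p-value = 0.0438 by edgeR). It was then the only one of the 10 past the threshold, where 0.476% of all genes were past it. The blocked difference was 0.72 ± 0.161 for ASPN (adjusted p-value = 0.0771 by edgeR), 1.10 ± 0.331 for BGN (adjusted p-value = 0.190 by edgeR) and 0.99 ± 0.330 for LUM (adjusted p-value = 0.245 by edgeR).

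The call of KERA was lost without control replicate 2, at 1.12 ± 0.243 (adjusted p-value = 0.121 by edgeR with the block), and without that calf and treated replicate 4 it was 1.16 ± 0.268 (adjusted p-value = 0.104 by edgeR with the block). The size of the difference changed little, and the round muscle was higher in all 7 remaining calves without control replicate 2. PRELP was at 0.04 ± 0.440 without the block, at -0.27 ± 0.213 with it and at -0.48 ± 0.165 with the block and without control replicate 2 (adjusted p-value = 0.335 by edgeR). DCN differed little between the muscles, at 0.18 ± 0.144 with the block, in spite of being the most abundant of the 10.

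**Figure D4:**
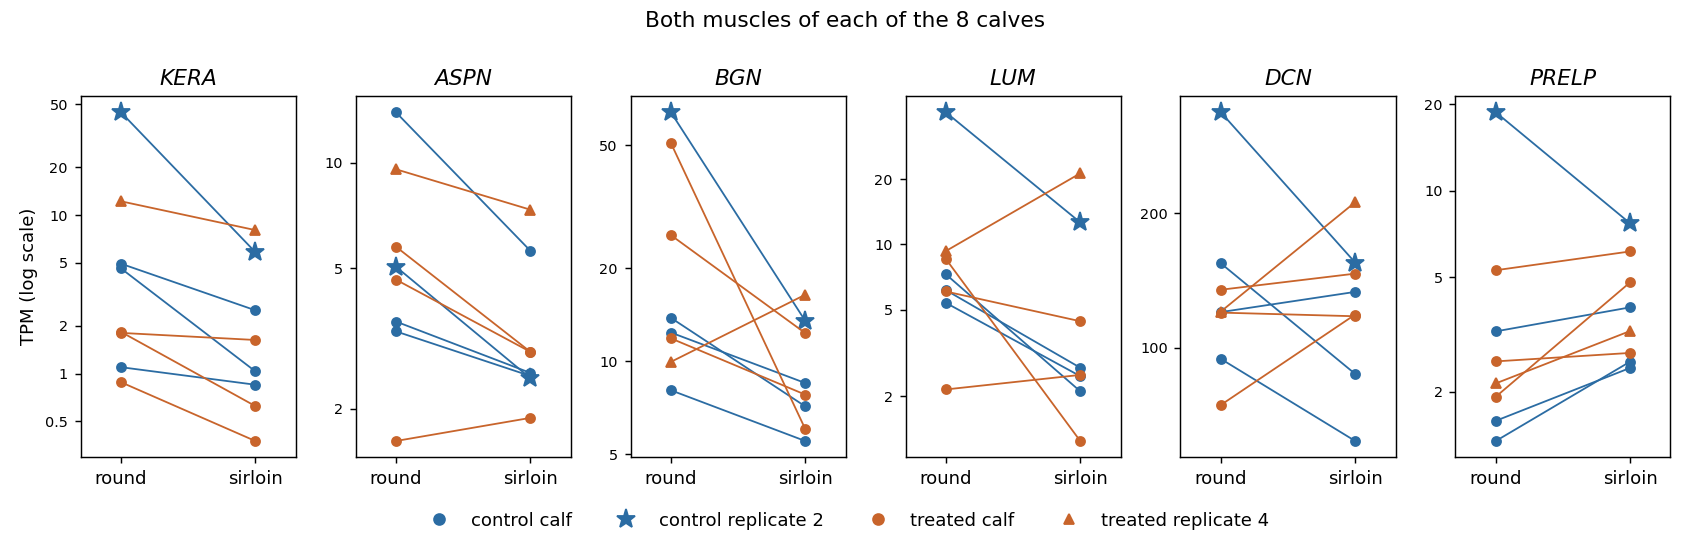
Each line joins the round and sirloin TPM (log axis) of one of the 8 calves for KERA, ASPN, BGN, LUM, DCN and PRELP, with control calves, treated calves, control replicate 2 (star) and treated replicate 4 (triangle) marked. For KERA all 8 lines fall from round to sirloin muscle, and for PRELP 7 of 8 rise.

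Genes of related function, taken from lists, were read in the same fits. Of 10 further leucine-rich proteins of the matrix (ECM2, OMD, OGN, EPYC, OPTC, CHAD, NYX, TSKU, PODN and PODNL1), control replicate 2 was the highest round library for 5, against 22.7% of all genes, and 0 passed the threshold in any of the 4 comparisons. Their median log2 fold change between the diets was -0.31 in round and 0.08 in sirloin muscle. In round muscle the lowest p-values between the diets belonged to ECM2, at -0.41 ± 0.350, and OMD, at -0.57 ± 0.487. OGN, a neighbour of ASPN and OMD on the chromosome, had a blocked difference of 0.65 ± 0.187 between round and sirloin muscle (adjusted p-value = 0.164 by edgeR).

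Of the 14 other tendon genes, 0 passed the threshold between the diets by edgeR, and 3 had an unadjusted p under 0.05 in round muscle, with a median log2 fold change of -0.69. COL11A1 at -3.15 ± 1.05 and COL12A1 at -1.63 ± 0.662 had the lowest p-values (adjusted p-value = 0.864 by edgeR for both), and control replicate 2 was the highest library for both. In sirloin muscle the median was 0.08, and CILP2 at 0.82 ± 0.457 and TPPP3 at -0.45 ± 0.271 had the lowest p-values. Between the muscles 12 of the 14 were higher in round muscle, and the blocked differences of COL1A2 and COL1A1 were both 1.06 (adjusted p-values of 0.0696 and 0.0900 by edgeR). With control replicate 2 in the fit, type I collagen thus lay on the same side as KERA, BGN and ASPN, but did not pass the threshold. COL1A1 was at 703 TPM in the round and 133 TPM in the sirloin muscle of that calf. Treated replicate 4 went the other way, with 113 TPM in round and 119 TPM in sirloin muscle for COL1A1, and 107 and 126 TPM for COL1A2.

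TGF-β and its partners regulate collagen and proteoglycan synthesis and the formation of tendon. Of 12 genes (TGFB1, TGFB2, TGFB3, TGFBR1, TGFBR2, TGFBR3, SMAD2, SMAD3, SMAD7, LTBP1, GDF5 and GDF6), 0 passed the threshold between the diets by edgeR, and the median was -0.28 in round and -0.02 in sirloin muscle. The lowest p-value in round muscle was that of TGFB1, at -0.76 ± 0.323 (adjusted p-value = 0.864 by edgeR), and in sirloin muscle that of TGFBR3, at 0.71 ± 0.331 (adjusted p-value = 0.876 by edgeR). TGFB3, a ligand expressed in developing tendon, was higher in round than in sirloin muscle with the calf as a block, by 1.06 ± 0.189 (adjusted p-value = 0.0364 by edgeR), and at 1.04 ± 0.223 without control replicate 2 (adjusted p-value = 0.117 by edgeR).

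The sugar chains of the proteoglycans are built by a separate set of enzymes. Of 11 genes of their synthesis (XYLT1, XYLT2, B4GALT7, B3GALT6, B3GAT3, CHSY1, CHPF, CHST11, CHST6, B3GNT7 and DSE), 0 passed the threshold in any comparison by edgeR. DSE, the epimerase that makes dermatan sulfate, had the lowest p-value of them in round muscle, at -0.92 ± 0.467 between the diets. It was at 0.76 ± 0.317 between the muscles without the block and at 0.70 ± 0.190 with it (adjusted p-value = 0.143 by edgeR). The summed level of the 11 genes moved less than that of the proteoglycans, from between 55.1 and 87.5 TPM in the other round libraries to 91.0 TPM in control replicate 2. Of that sum 44.6 TPM were B3GAT3, at 1.05 times the median of the other 7. Single enzymes moved more, with folds over that median of 5.56 for XYLT1, 4.59 for DSE and 3.57 for CHPF, against 0.880 for B3GALT6. Control replicate 2 was the highest round library for 7 of the 11, against 22.7% of all genes.

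The genes whose pattern over the 16 libraries was most like the mean of TNMD, SCX, MKX, FMOD and KERA were found among 12098 genes with a mean of at least 0.5 CPM. Likeness was Pearson's r of the log2 CPM centred within each muscle, given as a description over libraries that share calves and in which control replicate 2 is extreme. COL12A1 came first (r = 0.928), followed by SLC41A2 (r = 0.925), COL11A1 (r = 0.899), DDAH2 (r = 0.891) and LPAR1 (r = 0.887). Without the libraries of control replicate 2 the values were 0.793, 0.757, 0.797, 0.721 and 0.580 in the same order. COL11A1 was at 3.47 TPM in the round library of that calf and at most 0.291 TPM in the others, and LPAR1 was at 14.6 against at most 3.52 TPM.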

How the data were processed

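The 16 libraries hold RNA of round and sirloin muscle from 8 calves, and the groups were taken from the sample titles. The counts, as deposited by the authors, are whole reads per gene without normalization, and the TPM values deposited by the authors are scaled per length and per library total in a separate table for each muscle. The labels' processing notes name FastQC, Trimmomatic, STAR, featureCounts, DESeq2 and the build ARS-UCD1.2, whereas the paper's methods name HISAT2, Bowtie2 and StringTie. The labels give poly(A) selection and the paper rRNA and globin depletion. Neither conflict was settled, and the use of strand in counting is not given in the sources used here. The authors also deposited tables of their fold changes and p-values, which were not used.

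Gene IDs were paired with symbols through the RefSeq gene table of ARS-UCD2.0, which served only for names and for which genes neighbour or overlap each other, and 30762 of 34109 IDs (90.2%) had one.

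Genes with at least 1 count in any library of a fit were tested with edgeR 4.0.16 (TMM factors, glmQLFit and glmQLFTest, two-sided, R 4.3.3), muscle by muscle for the diets and over all 16 libraries in 4 groups for the muscles and the interaction. P-values were adjusted over all genes tested after Benjamini and Hochberg, with calls below 0.05, and the SE was the log2 fold change divided by the square root of F. A group at 0 was given a floor of 3 counts over the group. Alternatives were DESeq2 1.42.0, limma-voom (limma 3.58.1), RLE size factors, filterByExpr, a replicate block, limma on log2(TPM + 0.1) and log2(TPM + 1), and leaving out each calf in turn.

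The replicate numbers were taken to pair the 2 muscles of one calf, which the titles do not state. The correlation of deviations from the group means was 0.250 to 0.592 between muscles of the same number and diet. It was at most 0.283 between the others, so that the ranges overlapped slightly. The members and lists were chosen with earlier results of these data known. The genes named were the 10 members, the genes of each related list past the threshold or among the 2 lowest p-values of a comparison, and the 5 genes most like the mean of TNMD, SCX, MKX, FMOD and KERA. COL1A1, COMP, BOP1, CENPP and single marker genes named for their levels were chosen after their values were seen.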

Additional observations from a re-analysis of the deposited data

Results flagged for a closer look

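Within each group of 4 calves, the gap of the highest or lowest calf to its nearest neighbour was divided by the range of the group, and a ratio above Dixon's critical value for 4 samples marks a calf far from the others. Of 40 groups (10 genes in 4 groups), 15 held such a calf, and the share over all genes was not counted. The genes were selected in part on the position of control replicate 2, so this count is a description and no test. Control replicate 2 accounted for 9 of them and treated replicate 4 for 3.

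In control round muscle, control replicate 2 lay far above the others for FMOD (0.960), LUM (0.923), TNMD (0.914), KERA (0.888), PRELP (0.865), BGN (0.859) and MKX (0.834). In control sirloin muscle it did so for TNMD (0.948) and LUM (0.911). Control replicate 4 stood apart for ASPN in both muscles, at 0.925 in round and 0.889 in sirloin muscle. Treated replicate 4 stood apart for KERA in both muscles, at 0.933 in round and 0.848 in sirloin muscle, and for LUM in sirloin muscle, at 0.838. Treated replicate 2 was marginally past the critical value for SCX in round muscle, at 0.830. Treated replicate 4 had the fat cell markers in its sirloin library and not in its round library, where those markers summed to 4.73 TPM. The part of these markers in its high KERA was not tested.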

How the results depend on the processing

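The number of genes called between the diets depended on the method more than on the scaling. Of all genes in round muscle, edgeR called 4, DESeq2 46, limma-voom 1, the replicate block 2, limma on log2(TPM + 0.1) 1 and on log2(TPM + 1) 0 (797 at an unadjusted p under 0.05). In sirloin muscle edgeR called 2, DESeq2 13, limma-voom 0 (682 unadjusted), the block 0 (463 unadjusted) and the TPM scales 1 and 0 (1097 unadjusted). Leaving out 1 calf gave 0 to 3 calls in round and 0 to 1 in sirloin muscle, and leaving out control replicate 2 and treated replicate 4 together, a choice made after seeing the data, gave 0 and 0 (1609 and 947 unadjusted). Between the muscles DESeq2 called 83 genes where edgeR called 14, and leaving out 1 calf gave 13 to 19. Of the 10 genes, DESeq2 called 1 between the diets in round muscle. DESeq2 gave no p-value for FMOD in round muscle, between the muscles and for the interaction, nor for TNMD in sirloin muscle.

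With the replicate block, 109 genes were called between the muscles and 1 of the 10, KERA, while the block without control replicate 2 called 50 genes and without both calves 74, both added after seeing the data. The block gave 1 call for the interaction. Between the diets the number pairs no calves (correlations of -0.155 to 0.189), and the block changed no call of the 10 genes there.

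Signs changed for several genes. In sirloin muscle ASPN was at -0.0037 by limma-voom and -0.0647 with the block, LUM at -0.0462 and -0.119, and PRELP at 0.118 and 0.0849 on the TPM scales. Between the muscles PRELP was at -0.22 by limma-voom, at -0.27 with the block and at -0.48 with the block and without control replicate 2, with treated replicate 4 kept or left out. Without both calves, the round log2 fold change was 0.64 for FMOD, 0.39 for PRELP, 1.17 for BGN, -1.06 for ASPN, -1.54 for KERA and -1.36 for MKX. The sirloin one was -0.64 for ASPN, -0.04 for LUM and 0.40 for PRELP, and PRELP was at -0.43 between the muscles. Leaving out 1 calf at a time, the round log2 fold change ranged from -0.62 to 0.92 for BGN, -0.89 to 0.40 for ASPN, -2.33 to 0.46 for FMOD, -3.21 to 0.0621 for KERA and -1.46 to 0.28 for PRELP. In sirloin muscle the range was -0.15 to 0.40 for BGN, -0.52 to 0.40 for ASPN, -1.01 to 1.38 for LUM, -1.75 to 0.67 for KERA and -0.36 to 0.28 for PRELP, and between the muscles it was -0.44 to 0.16 for PRELP. The cause of these changes was not tested. SCX, MKX and DCN kept their direction between the diets in both muscles under every alternative run. Depth limited TNMD most, with at most 9 counts in any library but those of control replicate 2.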
